A study of Mus musculus with 12 samples.

Results

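The organic solute carriers and ATP-binding cassette (ABC) transporters of the liver were examined as 1 group of genes across 12 liver RNA libraries. The group comprised every gene of the 4 deposited tables whose symbol begins with Slco, *Slc22a* or Abca to Abcg and a number, with pseudogene symbols and 1 further gene left out. This gave 63 genes of 16292 in any of the tables, namely 7 Slco genes, 16 *Slc22a* genes and 40 ABC genes. The members were chosen by name and not by their values, although earlier results of these data were known. Of the 63 members, 60 stood in the table of *Lcn2* null CCl4 against *Lcn2* null oil, 62 in that of wild type CCl4 against wild type oil, 58 in that of *Lcn2* null oil against wild type oil, 58 in that of *Lcn2* null CCl4 against wild type CCl4, and 57 in all 4. *Slco4a1* stood only in the first of these tables, and *Abca14*, *Slc22a13b* and *Slc22a21* only in the second. The GENCODE M21 annotation lists *Slc22a13b* under a pseudogene name, but the deposited symbol carries no such mark and the gene was kept.

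Hepatocytes take up bile acids, steroid conjugates, drugs and bilirubin from the blood through carriers of the sinusoidal membrane. The organic anion transporting polypeptides (OATPs, encoded by Slco genes) carry bulky anions, and the SLC22 family holds the organic cation transporters, the carnitine carriers and the organic anion transporters. ABC transporters use ATP to export their substrates. Members at the canalicular membrane secrete bilirubin glucuronides, phospholipid and sterols into bile, others return conjugates to the blood, and further members load high density lipoprotein with cholesterol or carry fatty acids into peroxisomes. *Abce1* and the Abcf genes encode ATPases without membrane domains that act in translation.

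The libraries came from female C57BL/6 mice in 4 groups of 3. *Lcn2* null and wild type mice, 8 weeks old at the start, were injected intraperitoneally 2 times a week for 8 weeks with CCl4 in mineral oil, at 0.8 ml/kg, or with mineral oil as the vehicle, and livers were taken 48 h after the last injection. The groups were thus *Lcn2* null CCl4, wild type CCl4, *Lcn2* null oil and wild type oil, and mineral oil was given to every animal, so that no group was free of it. CCl4 is a liver poison that hepatocytes around the central vein turn into a reactive radical, and *Lcn2* encodes lipocalin 2, an acute-phase protein that binds iron carriers. The labels give replicates as numbers only, so that p-values cover only the variation among libraries, part of which can be technical.

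Between 7582962 and 14591487 reads per library were assigned to genes, and 3 reads corresponded to 0.206 to 0.396 CPM (the reads of a gene in every 1000000 reads assigned to genes). *Lcn2* itself had 16.7, 14.6 and 4.63 CPM in *Lcn2* null CCl4 livers, against 557, 424 and 405 CPM in wild type CCl4 livers. It had 7.74, 3.44 and 4.21 CPM in *Lcn2* null oil livers, against 345, 739 and 1045 CPM in wild type oil livers, so every library matched its labelled genotype. The 7 measured genes of the hepatocyte list (such as *Alb*, *Ttr* and *Apoa1*) together took 92943 to 96583 CPM in *Lcn2* null CCl4 livers, 88916 to 97872 CPM in wild type CCl4 livers, 94367 to 109794 CPM in *Lcn2* null oil livers and 75959.6 to 88204 CPM in wild type oil livers. Whole liver was measured, in which fewer cells of a type and less RNA per cell cannot be told apart.

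Of the members, 7 averaged under 1 CPM (*Abca14*, *Abca9*, *Abcc12*, *Slc22a13b*, *Slc22a21*, *Slc22a28* and *Slco4a1*). The sources name 2 library kits, of which 1 reads 3′ ends, and reads of 76 cycles. For the case of reads from the 3′ end, the last 500 bases of the annotated transcripts were compared with all other GENCODE M21 transcripts (GRCm38) for shared stretches of 76 bases. *Slc22a5* and *Slc22a21* shared 67.3% of these stretches with each other, *Slc22a28* shared 33.6% with *Slc22a30*, *Slc22a29* shared 8.24% with *Slc22a27*, and *Abcb1b* shared 9.07% with *Abcb1a* or *Abcb4*, so their values are uncertain to that extent. *Abca3*, *Abcb6* and *Abcb10* overlapped exons of another annotated gene over 94.0%, 83.9% and 52.6% of these bases, *Abcb6* with a gene on its own strand. For *Slco1a1*, *Slco1a4*, *Slco1b2*, *Slc22a26* and *Slc22a30* no stretch was shared and no such overlap was found. Levels are not compared between genes, because the kit decides whether CPM depends on transcript length.

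The promoters are shown first for uptake carriers that were lower with CCl4 in both genotypes and for *Slco1a4*, whose response differed between them. *Slco1b2* (chr6:141629518-141686646, + strand), *Slco1a4* (chr6:141805440-141856199, − strand) and *Slco1a1* (chr6:141907282-141946962, − strand) lie close together on chromosome 6 of GRCm38. *Slc22a26* (chr19:7781041-7802667) and *Slc22a27* (chr19:7864388-7966027), both on the − strand, stand in a cluster on chromosome 19 with *Slc22a28*, *Slc22a29* and *Slc22a30*. The sequences are from RefSeq (GRCm38.p6) and run 5′ to 3′ on the gene's strand, from 250 bases before the start site to 50 bases after it. Capitals mark GTTAAT (the unit repeated in HNF1 sites), AGGTCA (the hexamer bound by many nuclear receptors) and CAAAGTCCA (a form of the HNF4 element), each searched on both strands, and none of the 3 contains another.
Slco1a1, chr6:141946913-141947212: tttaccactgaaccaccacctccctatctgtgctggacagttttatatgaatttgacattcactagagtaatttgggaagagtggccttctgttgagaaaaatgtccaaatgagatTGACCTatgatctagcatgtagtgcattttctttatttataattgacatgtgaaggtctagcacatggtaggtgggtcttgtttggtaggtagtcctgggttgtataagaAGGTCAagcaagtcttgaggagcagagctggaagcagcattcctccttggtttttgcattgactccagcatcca
Slco1b2, chr6:141629268-141629567: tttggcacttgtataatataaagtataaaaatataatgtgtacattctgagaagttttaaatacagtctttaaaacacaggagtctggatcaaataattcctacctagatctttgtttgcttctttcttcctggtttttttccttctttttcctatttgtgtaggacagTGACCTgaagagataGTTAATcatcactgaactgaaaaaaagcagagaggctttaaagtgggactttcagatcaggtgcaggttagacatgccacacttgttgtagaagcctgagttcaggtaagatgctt
Slc22a26, chr19:7802618-7802917: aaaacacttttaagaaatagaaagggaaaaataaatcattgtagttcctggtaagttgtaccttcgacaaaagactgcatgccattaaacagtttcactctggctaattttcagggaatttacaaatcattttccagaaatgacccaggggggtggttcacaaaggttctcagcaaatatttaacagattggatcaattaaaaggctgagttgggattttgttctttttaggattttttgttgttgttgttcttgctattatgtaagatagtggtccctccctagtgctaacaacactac
Slc22a27, chr19:7965978-7966277: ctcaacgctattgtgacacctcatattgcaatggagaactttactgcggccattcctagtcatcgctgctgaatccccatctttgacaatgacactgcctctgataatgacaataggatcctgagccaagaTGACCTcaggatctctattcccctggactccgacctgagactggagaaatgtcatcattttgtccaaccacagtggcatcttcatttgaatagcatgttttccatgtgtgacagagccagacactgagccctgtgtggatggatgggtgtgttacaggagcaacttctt
Slco1a4, chr6:141856171-141856470: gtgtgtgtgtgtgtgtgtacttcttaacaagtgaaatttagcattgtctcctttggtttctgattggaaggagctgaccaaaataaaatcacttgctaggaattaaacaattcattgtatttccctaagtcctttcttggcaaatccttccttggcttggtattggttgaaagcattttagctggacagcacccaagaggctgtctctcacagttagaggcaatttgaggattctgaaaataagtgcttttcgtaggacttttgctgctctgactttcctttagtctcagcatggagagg

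AGGTCA or its complement stood at bases 117 and 227 of the *Slco1a1* window, base 170 of the *Slco1b2* window and base 132 of the *Slc22a27* window, counted from 1 at the 5′ end. GTTAAT stood at base 185 of the *Slco1b2* window. *Slc22a26* and *Slco1a4* held none of the letters searched. Of all 32851 promoter windows, 16.3% held AGGTCA, 7.1% held GTTAAT and 0.475% held CAAAGTCCA on either strand. The 48 members with a window had 58 windows in all. Of these members, 8 held AGGTCA in any of their windows, 2 (*Slc22a29* and *Slco1b2*) held GTTAAT, and *Abcd3* alone held CAAAGTCCA. The percentages count windows, whereas these counts are of genes. The 5 windows were 46.7% to 53.2% identical in global alignments of each pair, 48.6% for *Slc22a26* with *Slc22a27* and 46.7% for *Slco1a1* with *Slco1a4*. A match of letters is a description and not a binding site.

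The first question was how the transporter genes changed with CCl4 in each genotype. In *Lcn2* null livers, 9 of 60 members were called higher with CCl4 and 16 lower. Of the 15645 genes tested there, 29.6% were called higher and 4.51% lower. With CCl4 in wild type livers, 13 of 62 members were called higher and 6 lower, where 18.5% and 3.18% of all 15841 genes were called. Calls required an adjusted p no higher than 0.05 and a log2 fold change beyond 0.56 (1.47-fold). Fold changes were taken on log2(CPM + 1), where those of genes with few reads come out smaller than they are. The members had a median log2 fold change of -0.09 in *Lcn2* null livers and 0.16 in wild type livers, while the medians of all genes were 0.35 and 0.27.

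After CPM were rescaled by TMM factors, which by construction bring the bulk of the genes to the same level, the medians of all genes were 0.03 and 0.02. The members were then called higher in 2 and lower in 26 of 60 cases in *Lcn2* null livers, where 12.5% of all genes were higher and 10.7% lower. Of 62 in wild type livers, 3 were called higher and 12 lower, where 7.57% and 6.82% of all genes were called. All 16 and all 6 lower calls under the deposited scaling were also made with TMM, with edgeR and with DESeq2, whereas of the higher calls *Abcc1* and *Abcg1* (*Lcn2* null) and *Abcb1a*, *Slco1a4* and *Abcd2* (wild type) were made with TMM too. Count tests on the reads behind the CPM gave similar counts. edgeR called 4 higher and 26 lower in *Lcn2* null livers (all genes 12.7% and 10.9%) and 2 higher and 11 lower in wild type livers (all genes 7.26% and 6.79%). DESeq2 called 4 higher and 27 lower in *Lcn2* null livers (all genes 13.3% and 11.3%) and 2 higher and 14 lower in wild type livers (all genes 8.13% and 7.87%). The CPM of CCl4 and oil libraries did not overlap, with CCl4 higher or lower, for 13 and 23 members in *Lcn2* null livers (all genes 45.3% and 8.53%) and for 21 and 11 in wild type livers (all genes 37.6% and 6.82%). Fold changes below use the CPM as deposited, with the TMM value beside some of those whose call it changes.

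**Figure D1:**
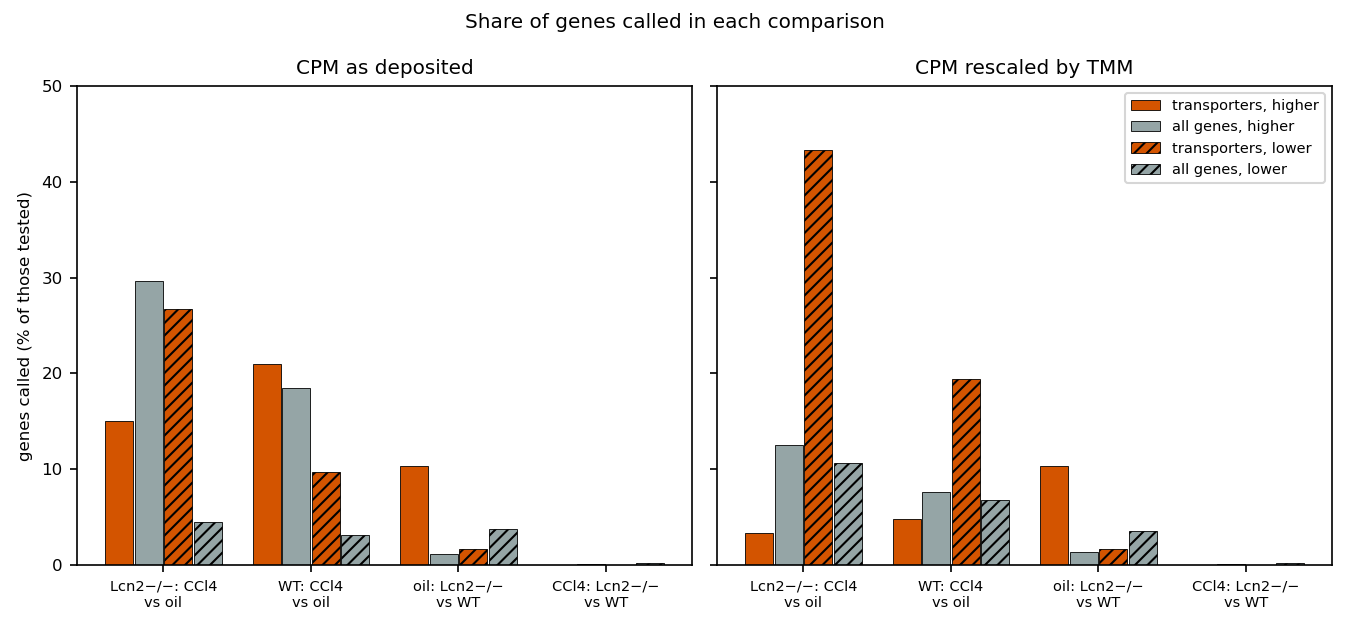
The bars give the percentage of genes called higher (plain) and lower (hatched) in the 4 comparisons, for the transporters (orange) and for all genes of the same table (grey), with CPM as deposited (left panel) and after TMM (right panel). With CCl4 the transporters exceed all genes in lower calls under both scalings, 26.7% against 4.51% in Lcn2 null livers and 9.68% against 3.18% in wild type livers with the deposited CPM.

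OATP uptake carriers were among the most changed members. *Slco1a1*, which carries bile acids and steroid conjugates into hepatocytes, had 0.791, 1.11 and 0.50 CPM in *Lcn2* null CCl4 livers, against 41.1, 53.4 and 14.9 CPM in *Lcn2* null oil livers. It had 0.773, 0.411 and 0 CPM in wild type CCl4 livers, against 10.6, 8.64 and 3.85 CPM in wild type oil livers. Every CCl4 library lay below every oil library of its genotype, and the wild type CCl4 values rest on 13 reads in all. The log2 fold change was -4.22 ± 0.37 (SE, n = 3 per group, adjusted p = 3.15e-06, limma) in *Lcn2* null livers and -2.59 ± 0.34 (adjusted p = 7.13e-05, limma) in wild type livers, and -4.51 and -2.77 with TMM.

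*Slco1b2* is the mouse counterpart of the human carriers OATP1B1 and OATP1B3, which take up bilirubin glucuronides and statins. It had 332, 316 and 327 CPM in *Lcn2* null CCl4 livers, against 1096, 769 and 760.2 CPM in *Lcn2* null oil livers. It had 312, 359.9 and 359 CPM in wild type CCl4 livers, against 777, 604 and 527 CPM in wild type oil livers. The groups did not overlap in either genotype, and the 6 CCl4 libraries spanned a narrower range than the 6 oil libraries. Its log2 fold change was -1.40 ± 0.13 (adjusted p = 3.69e-06, limma) in *Lcn2* null livers and -0.87 ± 0.14 (adjusted p = 3.19e-04, limma) in wild type livers.

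*Slco1a4*, which carries bile acids and digoxin, moved in opposite directions in the 2 genotypes. The *Lcn2* null CCl4 libraries had 82.7, 45.2 and 88.6 CPM, against 140.4, 92.9 and 91.4 CPM in the *Lcn2* null oil libraries. The wild type CCl4 libraries had 68.7, 92.4 and 118 CPM, against 54, 53.7 and 34.7 CPM in the wild type oil libraries. The CCl4 libraries lay wholly below the oil libraries in *Lcn2* null livers and wholly above them in wild type livers. The log2 fold change was -0.61 ± 0.22 (adjusted p = 0.0442, limma) in *Lcn2* null livers and 0.95 ± 0.19 (adjusted p = 0.00206, limma) in wild type livers. The *Lcn2* null call ended without *Lcn2* null CCl4 replicate 2 (-0.31) or *Lcn2* null oil replicate 1, 2 or 3 (-0.41, -0.70 and -0.71), and also in 1 fit of all 12 libraries (adjusted p = 0.0511, limma), with a pseudocount of 5 (adjusted p = 0.053, limma) and without a trend of the variance (adjusted p = 0.133, limma). The wild type value was 0.63 with TMM, and that call was made with edgeR but not with DESeq2.

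Of the other OATPs, *Slco2b1* (a carrier of steroid sulfates) had 60.8, 79.9 and 76.1 CPM in *Lcn2* null CCl4 livers, against 97, 109 and 99.3 CPM in *Lcn2* null oil livers. It had 70.6, 82.7 and 73 CPM in wild type CCl4 livers, against 109, 88.5 and 94.6 CPM in wild type oil livers. Its log2 fold changes of -0.50 ± 0.11 and -0.36 ± 0.12 missed the fold threshold, and with TMM they were -0.92 and -0.69 (adjusted p = 5.55e-05 and 0.00121, limma), so that both were then called. *Slco3a1*, an OATP of wide tissue distribution, had 7.38, 11.7 and 7.38 CPM in *Lcn2* null CCl4 livers, against 4.25, 3.23 and 4.09 CPM in *Lcn2* null oil livers (log2 fold change 0.99 ± 0.24, adjusted p = 0.00476, limma). With TMM its value was 0.63 and was not called, whereas edgeR and DESeq2 called it. *Slco3a1* had 13.7, 8.64 and 7.95 CPM in wild type CCl4 livers, against 8.1, 5.76 and 6.73 CPM in wild type oil livers, where the groups overlapped. The prostaglandin carrier *Slco2a1* was called in none of the comparisons.

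The pericentral hepatocyte markers, a list of 8 genes with *Glul* and *Cyp2e1*, were as a sum lower with CCl4 in both genotypes. So were *Slco1a1* and *Slco1b2*, whereas *Slco1a4* was called higher in wild type livers and *Slco3a1* in *Lcn2* null livers. The summed level of the markers was 1831 to 2115 CPM in *Lcn2* null CCl4 livers, against 7128 to 8656 CPM in *Lcn2* null oil livers. It was 1642 to 1772 CPM in wild type CCl4 livers, against 5026 to 5877 CPM in wild type oil livers. Of the 8, 6 were called lower in *Lcn2* null livers (median log2 fold change -2.01) and 5 lower with 1 higher (*Lect2*) in wild type livers (median -1.74), and none stood at 0. With TMM both genotypes had 0 higher and 6 lower. Other marker lists moved with CCl4 as well. Of 7 periportal hepatocyte markers, 1 was called higher and 3 lower in *Lcn2* null livers (median -0.44, and with TMM 0 higher and 5 lower, median -0.86), and 1 higher and 1 lower in wild type livers (median 0.11). Of 8 stellate cell and myofibroblast markers 5 were called higher in each genotype, of 8 cholangiocyte markers 4 were higher in each genotype with 1 lower in wild type livers, and all 5 proliferation genes were higher in both. The part of these cells in the change of the carriers was not tested.

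**Figure D2:**
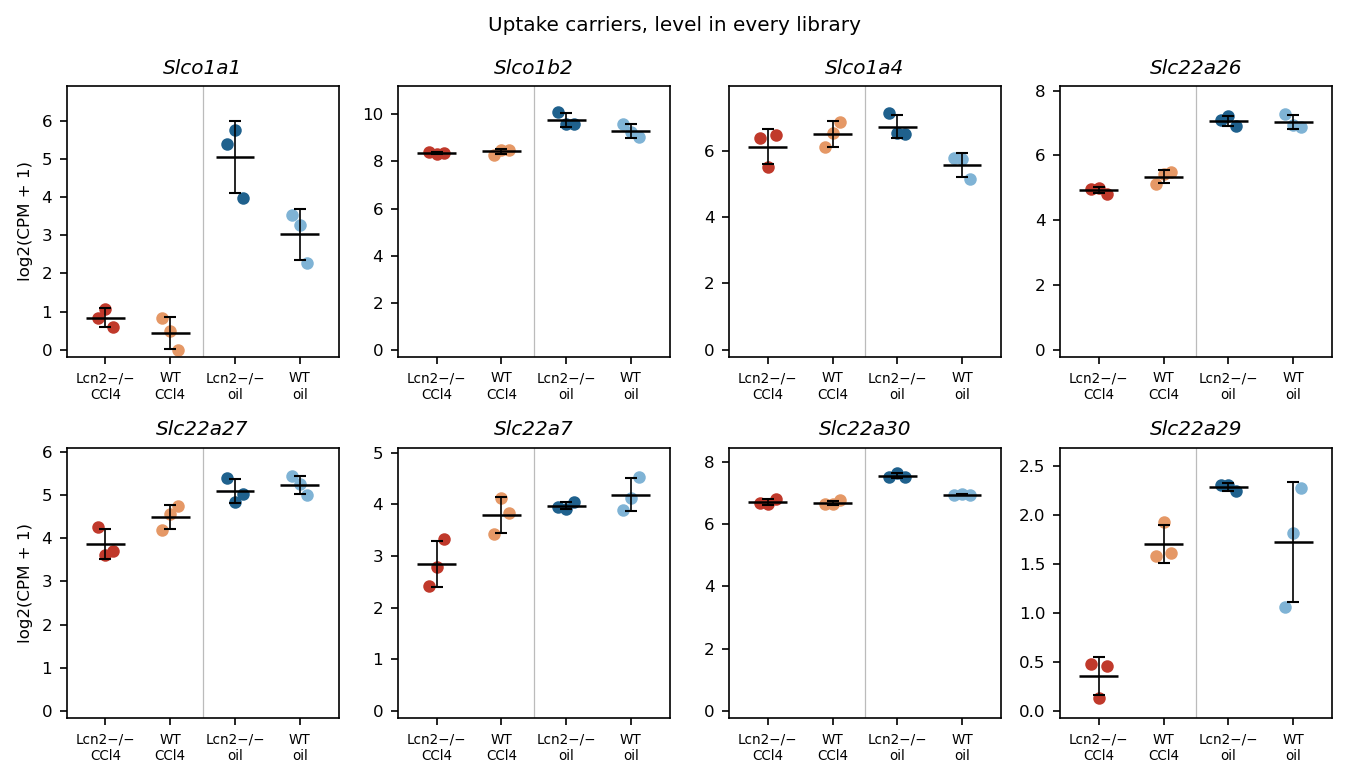
Each panel gives log2(CPM + 1) of 1 uptake carrier in the 12 libraries (points, 3 per group), with the group mean (bar) and its SD (whiskers), CCl4 groups left of the line and oil groups right of it. Slco1a1, Slco1b2 and Slc22a26 are lower in all 6 CCl4 libraries than in all 6 oil libraries, while Slco1a4 with CCl4 is below oil in Lcn2 null livers and above oil in wild type livers.

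The organic anion carriers of the SLC22 family were called lower with CCl4 in all 6 cases in *Lcn2* null livers (median log2 fold change -1.18) and in 2 of 6 cases in wild type livers (median -0.33), where 4.51% and 3.18% of all genes were called lower. With TMM the counts were 6 and 4 of 6, where 10.7% and 6.82% of all genes were called lower. *Slc22a26*, a rodent member of this branch, had 30.2, 30.9 and 27.3 CPM in *Lcn2* null CCl4 livers, against 136, 148 and 118 CPM in *Lcn2* null oil livers. It had 33.7, 42.2 and 44 CPM in wild type CCl4 livers, against 155, 122 and 117 CPM in wild type oil livers. No CCl4 library reached an oil library in either genotype. It changed by -2.14 ± 0.11 (adjusted p = 3.00e-08, limma) in *Lcn2* null livers and -1.69 ± 0.14 (adjusted p = 5.58e-07, limma) in wild type livers.

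*Slc22a27*, of the same branch and cluster, followed at lower fold changes. Its level was 18.1, 11.2 and 12.1 CPM in *Lcn2* null CCl4 livers, against 41.1, 27.8 and 31.4 CPM in *Lcn2* null oil livers. In wild type CCl4 livers the level was 17.3, 22.5 and 25.9 CPM, against 42.2, 37.4 and 31.3 CPM in wild type oil livers. Here too the groups did not overlap, with log2 fold changes of -1.23 ± 0.19 (adjusted p = 3.04e-04, limma) in *Lcn2* null livers and -0.74 ± 0.16 (adjusted p = 0.00424, limma) in wild type livers. *Slc22a7*, the organic anion transporter OAT2, had 4.35, 5.94 and 9.0 CPM in *Lcn2* null CCl4 livers, against 14.5, 14.1 and 15.6 CPM in *Lcn2* null oil livers (log2 fold change -1.13 ± 0.23, adjusted p = 0.00162, limma). It had 9.72, 16.4 and 13.3 CPM in wild type CCl4 livers, against 13.9, 16.4 and 22.1 CPM in wild type oil livers, where the groups overlapped and it was not called with the deposited scaling but was with TMM (-0.70, adjusted p = 0.0481, limma).

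*Slc22a29* and *Slc22a30*, also of the chromosome 19 cluster, changed with CCl4 in *Lcn2* null livers. *Slc22a29* had 0.396, 0.101 and 0.375 CPM in *Lcn2* null CCl4 livers, against 3.92, 3.95 and 3.72 CPM in *Lcn2* null oil livers, that is 7 reads against 121 reads over 3 libraries each. It had 1.99, 2.81 and 2.04 CPM in wild type CCl4 livers, against 1.09, 2.52 and 3.85 CPM in wild type oil livers. In *Lcn2* null livers all CCl4 libraries lay below all oil libraries and the log2 fold change was -1.92 ± 0.24 (adjusted p = 4.52e-05, limma), whereas in wild type livers the groups overlapped and it was -0.01 ± 0.31. *Slc22a30* had 99.8, 99.4 and 111 CPM in *Lcn2* null CCl4 livers, against 179.8, 197 and 181 CPM in *Lcn2* null oil livers. It had 97.9, 98.2 and 107 CPM in wild type CCl4 livers, against 121, 125 and 120.5 CPM in wild type oil livers. The groups were apart in both genotypes, by -0.84 ± 0.09 (adjusted p = 1.61e-05, limma) in *Lcn2* null livers and by -0.27 ± 0.10 in wild type livers, the last of which was not called with the deposited scaling but was with TMM (-0.59).

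*Slc22a28*, also of the cluster, rested on few reads. It had 0, 0.101 and 0.125 CPM in *Lcn2* null CCl4 livers, against 0.436, 2.65 and 0.744 CPM in *Lcn2* null oil livers, that is 2 reads against 47 reads over 3 libraries each. Its call (log2 fold change -0.96 ± 0.32, adjusted p = 0.0266, limma) ended without *Lcn2* null CCl4 replicate 1 or 2 (-0.91 and -0.98) or *Lcn2* null oil replicate 2 (-0.56). The wild type libraries held 0, 0.137 and 0.114 CPM with CCl4, against 0.546, 0 and 0.24 CPM with oil.

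Among the organic cation, carnitine and zwitterion carriers, 4 of 8 were called lower with CCl4 in *Lcn2* null livers and 1 of 9 in wild type livers, and none was called higher. Of all genes, 4.51% and 3.18% were called lower and 29.6% and 18.5% higher. With TMM the lower calls were 5 of 8 and 2 of 9, where 10.7% and 6.82% of all genes were called lower. *Slc22a5*, the carnitine transporter OCTN2, had 8.18, 9.06 and 7.38 CPM in *Lcn2* null CCl4 livers, against 21.7, 13.3 and 9.42 CPM in *Lcn2* null oil livers (log2 fold change -0.71 ± 0.25, adjusted p = 0.0357, limma). It had 6.51, 9.05 and 10.2 CPM in wild type CCl4 livers, against 15.1, 10.7 and 12.3 CPM in wild type oil livers (log2 fold change -0.52 ± 0.21, adjusted p = 0.0815, limma), which was called with TMM (-0.82). The groups were apart in both genotypes. The *Lcn2* null call ended without *Lcn2* null CCl4 replicate 1, 2 or 3 (-0.71, -0.78 and -0.64) or *Lcn2* null oil replicate 1 or 2 (-0.41 and -0.74), and the value was -1.10 with TMM.

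*Slc22a4* (OCTN1, the ergothioneine transporter) and *Slc22a3* (OCT3, a carrier of monoamines) were lower with CCl4 in *Lcn2* null livers at low levels. *Slc22a4* had 0.791, 0.906 and 1.13 CPM in *Lcn2* null CCl4 livers, against 3.49, 2.73 and 1.98 CPM in *Lcn2* null oil livers (log2 fold change -0.93 ± 0.25, adjusted p = 0.00988, limma). *Slc22a3* had 2.9, 1.61 and 0.875 CPM in *Lcn2* null CCl4 livers, against 5.12, 4.59 and 4.34 CPM in *Lcn2* null oil livers (log2 fold change -1.09 ± 0.29, adjusted p = 0.00876, limma). Both calls were kept without any single library. The wild type groups overlapped for both, *Slc22a4* having 0, 1.3 and 0.795 CPM with CCl4, against 2.0, 1.8 and 0.721 CPM with oil, and *Slc22a3* having 1.66, 3.22 and 3.18 CPM with CCl4, against 2.37, 2.4 and 2.52 CPM with oil. Exons of *Slc22a3* overlap those of *Plg* on the other strand, which had 1048 CPM or more in every library, although not within the last 500 bases. With the deposited scaling *Slc22a15*, *Slc22a17*, *Slc22a18* and *Slc22a23* were called in none of the 4 comparisons, whereas with TMM *Slc22a18* was called lower with CCl4 in *Lcn2* null livers (-0.59, adjusted p = 0.00161, limma).

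Of the 40 ABC genes, 8 were called higher with CCl4 in *Lcn2* null livers (*Abcc1*, *Abcg1*, *Abcc4*, *Abce1*, *Abcg3*, *Abcc5*, *Abca1* and *Abca7*) and 12 in wild type livers (*Abcb1a*, *Abcd2*, *Abcc4*, *Abcc1*, *Abca7*, *Abca9*, *Abcf1*, *Abcg1*, *Abcg2*, *Abca1*, *Abcc2* and *Abce1*). Together with *Slco3a1* and *Slco1a4*, these made up the higher calls. Called higher in both were *Abca1*, *Abca7*, *Abcc1*, *Abcc4*, *Abce1* and *Abcg1*, which is 66.7% of the *Lcn2* null list and 46.2% of the wild type list. Higher calls made up 15% of the members in *Lcn2* null livers, against 29.6% of all genes, and 21% in wild type livers, against 18.5%.

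*Abcc1*, the multidrug resistance protein MRP1 that exports glutathione conjugates and leukotriene C4, had the largest increase in *Lcn2* null livers. It had 6.33, 4.23 and 3.0 CPM in *Lcn2* null CCl4 livers, against 0.763, 0.861 and 0.496 CPM in *Lcn2* null oil livers. It had 6.62, 3.5 and 3.29 CPM in wild type CCl4 livers, against 2.18, 1.56 and 2.4 CPM in wild type oil livers. The CCl4 libraries were all above the oil libraries of their genotype. Its log2 fold change was 1.66 ± 0.28 (adjusted p = 4.53e-04, limma) in *Lcn2* null livers and 1.39 with TMM. In wild type livers it was 0.80 ± 0.29 (adjusted p = 0.0496, limma), a call that ended without any 1 of the 6 libraries, namely without WT CCl4 replicate 1, 2 or 3 (0.54, 0.92 and 0.95) or WT oil replicate 1, 2 or 3 (0.84, 0.68 and 0.89), and with TMM (0.56).

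*Abcg1*, which exports cholesterol to high density lipoprotein and is abundant in macrophages, had 19.1, 19.8 and 11.4 CPM in *Lcn2* null CCl4 livers, against 4.25, 6.17 and 5.58 CPM in *Lcn2* null oil livers. It had 18, 17.5 and 19.6 CPM in wild type CCl4 livers, against 14, 10.7 and 9.98 CPM in wild type oil livers. The CCl4 libraries of the genotypes overlapped, and the *Lcn2* null oil libraries were the lowest of all 4 groups. The log2 fold change was 1.46 ± 0.23 (adjusted p = 3.27e-04, limma) in *Lcn2* null livers and 1.08 with TMM. In wild type livers it was 0.64 ± 0.18 (adjusted p = 0.0142, limma), which was 0.33 and not called with TMM and ended without WT CCl4 replicate 3 (0.59) or WT oil replicate 2 or 3 (0.59 and 0.55).

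The 9 markers of Kupffer cells and macrophages (such as *Clec4f*, *Adgre1* and *Cd68*) summed to 588 to 877 CPM in *Lcn2* null CCl4 livers, against 447 to 587 CPM in *Lcn2* null oil livers. They summed to 652 to 1146 CPM in wild type CCl4 livers, against 792 to 1388 CPM in wild type oil livers. In *Lcn2* null livers 5 of 9 were called higher with CCl4 and 2 lower (2 and 2 with TMM), and in wild type livers 1 higher and 5 lower. The 8 monocyte and neutrophil markers were called higher in all 8 cases in *Lcn2* null livers, and in 1 case, with 3 lower, in wild type livers. None of the markers stood at 0, and their part in the change of *Abcg1* and *Abcc1* was not tested.

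*Abcb1a*, the drug exporter P-glycoprotein, had the largest increase in wild type livers. It had 5.8, 5.44 and 4.25 CPM in *Lcn2* null CCl4 livers, against 3.38, 3.73 and 3.22 CPM in *Lcn2* null oil livers. It had 10.8, 7.68 and 7.83 CPM in wild type CCl4 livers, against 3.0, 2.04 and 2.64 CPM in wild type oil livers. All CCl4 libraries exceeded the oil libraries in both genotypes. Its change of 0.46 ± 0.23 (adjusted p = 0.115, limma) in *Lcn2* null livers was not called. It was 1.45 ± 0.25 (adjusted p = 6.42e-04, limma) in wild type livers and 1.19 with TMM, and no single library ended that call.

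*Abcd2*, a peroxisomal transporter of very long chain fatty acids, was called higher with CCl4 in wild type livers. It had 51.3, 39.9 and 45.4 CPM in *Lcn2* null CCl4 livers, against 59, 34.8 and 52.8 CPM in *Lcn2* null oil livers. It had 47.5, 37.6 and 47.7 CPM in wild type CCl4 livers, against 31.1, 24.1 and 15.3 CPM in wild type oil livers. The wild type oil libraries stood below all other libraries, and in *Lcn2* null livers the CCl4 and oil groups overlapped. The log2 fold change in wild type livers was 0.93 ± 0.20 (adjusted p = 0.00343, limma) and 0.62 with TMM, and the call was made with DESeq2 but not with edgeR.

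*Abcc4* (MRP4, which exports bile acids and cyclic nucleotides at the sinusoidal membrane) had 7.25, 9.56 and 4.88 CPM in *Lcn2* null CCl4 livers, against 3.49, 1.79 and 3.1 CPM in *Lcn2* null oil livers. It had 5.52, 6.1 and 8.29 CPM in wild type CCl4 livers, against 2.82, 3.84 and 3.37 CPM in wild type oil livers. The groups were apart in both genotypes, with log2 fold changes of 1.11 ± 0.28 (adjusted p = 0.00702, limma) and 0.80 ± 0.25 (adjusted p = 0.0255, limma). With TMM neither was called (0.76 and 0.54), although edgeR and DESeq2 called the first. The wild type call also ended without WT CCl4 replicate 2 or 3 (0.85 and 0.65) or WT oil replicate 1 or 3 (0.72 and 0.81).

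*Abca1*, which loads apolipoprotein A-I with cholesterol, had 127, 146 and 150.01 CPM in *Lcn2* null CCl4 livers, against 67.8, 80.6 and 100.04 CPM in *Lcn2* null oil livers (log2 fold change 0.78 ± 0.13). It had 146, 125 and 141 CPM in wild type CCl4 livers, against 87.1, 86.6 and 102 CPM in wild type oil livers (log2 fold change 0.58 ± 0.11). *Abce1*, needed for the recycling of ribosomes, had 71.9, 73.5 and 88.6 CPM in *Lcn2* null CCl4 livers, against 40.4, 38.4 and 46.5 CPM in *Lcn2* null oil livers, and 79.8, 66.3 and 61.4 CPM in wild type CCl4 livers, against 46.9, 46.3 and 45.2 CPM in wild type oil livers. For both genes the CCl4 libraries lay above the oil libraries throughout. None of these calls was made with TMM, where *Abca1* changed by 0.35 and 0.25 and *Abce1* by 0.46 and 0.24 (*Lcn2* null and wild type). The wild type call of *Abca1* ended without WT CCl4 replicate 1 or 3 (0.53 and 0.55) or WT oil replicate 1 or 2 (0.54 and 0.54), and that of *Abce1* without WT CCl4 replicate 1 (0.46) or WT oil replicate 3 (0.55).

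*Abcg2*, the exporter of urate and many drugs, had 43.7, 35.5 and 47.4 CPM in *Lcn2* null CCl4 livers, against 28, 28.9 and 30.7 CPM in *Lcn2* null oil livers. It had 47, 47.8 and 45.5 CPM in wild type CCl4 livers, against 33.4, 29.99 and 28.7 CPM in wild type oil livers. The groups were apart in both, yet with 0.51 ± 0.13 in *Lcn2* null livers it missed the fold threshold, and in wild type livers (0.59 ± 0.12) the call ended without WT oil replicate 3 (0.55) and with TMM (0.27). The translation factor *Abcf1* had 52.8, 45.4 and 47.1 CPM in wild type CCl4 livers, against 30.7, 25 and 33.5 CPM in wild type oil livers (log2 fold change 0.69 ± 0.14, and 0.37 and not called with TMM). *Abcf1* had 44, 51.5 and 52.6 CPM in *Lcn2* null CCl4 livers, against 31.2, 42.8 and 32.5 CPM in *Lcn2* null oil livers, and was not called there.

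None of the remaining higher calls was made with TMM. In *Lcn2* null livers *Abcc5* (an exporter of cyclic nucleotides) had 11.9, 20.6 and 9.5 CPM with CCl4, against 7.85, 6.38 and 6.45 CPM with oil, and its call (0.86 ± 0.25) ended without *Lcn2* null CCl4 replicate 2 (0.56) or *Lcn2* null oil replicate 2 (0.82). *Abcg3*, a rodent relative of *Abcg2*, had 6.86, 7.85 and 5.0 CPM with CCl4, against 4.8, 1.51 and 3.6 CPM with oil, and its call (0.88 ± 0.31) ended without *Lcn2* null CCl4 replicate 1 or 2 (0.85 and 0.76) or *Lcn2* null oil replicate 2 or 3 (0.53 and 0.97). The call of *Abca7* in *Lcn2* null livers (0.66 ± 0.25) ended without *Lcn2* null CCl4 replicate 1, 2 or 3 (0.67, 0.61 and 0.69) or *Lcn2* null oil replicate 2 or 3 (0.72 and 0.45). For wild type livers, *Abca7* had 10.5, 5.55 and 7.26 CPM with CCl4, against 4.55, 4.56 and 3.13 CPM with oil, and its call (0.76 ± 0.26) ended without WT CCl4 replicate 1 or 3 (0.55 and 0.79) or WT oil replicate 1, 2 or 3 (0.83, 0.84 and 0.62). *Abca9* had 1.21, 1.44 and 1.82 CPM with CCl4, against 0.637, 0.60 and 0.24 CPM with oil in wild type livers, and its call (0.74 ± 0.25) ended without WT CCl4 replicate 2 or 3 (0.75 and 0.65) or WT oil replicate 1, 2 or 3 (0.81, 0.80 and 0.61). For *Abcc5* (11.8, 9.53 and 11.8 CPM with CCl4, against 7.82, 6.84 and 7.09 CPM with oil) and *Abcg3* (7.95, 6.65 and 7.15 CPM with CCl4, against 5.91, 6.0 and 4.93 CPM with oil) the wild type groups were apart without a call. For *Lcn2* null livers, *Abca7* had 5.41, 5.94 and 5.25 CPM with CCl4, against 4.03, 3.52 and 2.11 CPM with oil, and *Abca9* had 0.923, 1.81 and 0.75 CPM with CCl4, against 0.981, 0.574 and 0.372 CPM with oil.

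**Figure D3:**
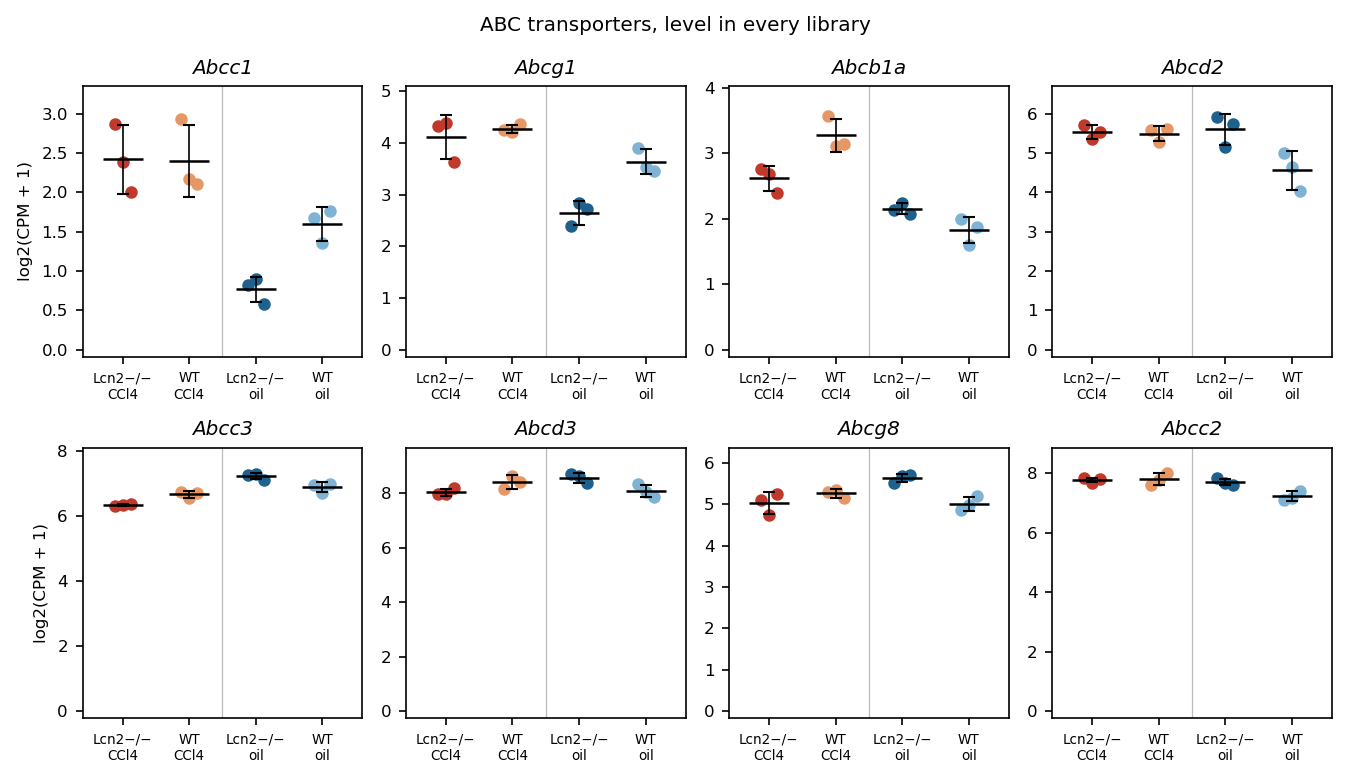
Each panel gives log2(CPM + 1) of 1 ABC transporter in the 12 libraries (points, 3 per group), with the group mean (bar) and its SD (whiskers), CCl4 groups left of the line and oil groups right of it. Abcc1 and Abcg1 are lowest in the Lcn2 null oil livers, Abcb1a is highest in the wild type CCl4 livers, and Abcc3 is highest in the Lcn2 null oil livers and lowest in the Lcn2 null CCl4 livers.

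Among the canalicular exporters *Abcc2*, *Abcb4*, *Abcg5* and *Abcg8*, *Abcg8* was called lower in *Lcn2* null livers and *Abcc2* higher in wild type livers. *Abcc2* (MRP2, the bilirubin glucuronide exporter) had 228, 205 and 222 CPM in *Lcn2* null CCl4 livers, against 227, 206 and 195 CPM in *Lcn2* null oil livers. It had 196, 219 and 258 CPM in wild type CCl4 livers, against 136, 145 and 169 CPM in wild type oil livers. The *Lcn2* null groups overlapped and the difference of 0.06 ± 0.09 turned to -0.36 with TMM. In wild type livers the value was 0.57 ± 0.12 (adjusted p = 0.0032, limma), 0.25 with TMM, and the call ended without WT CCl4 replicate 3 (0.47) or WT oil replicate 1 or 2 (0.51 and 0.55).

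*Abcb4*, the phosphatidylcholine flippase, had 111, 118 and 106 CPM in *Lcn2* null CCl4 livers, against 136, 134 and 107 CPM in *Lcn2* null oil livers. It had 88, 90.3 and 91.9 CPM in wild type CCl4 livers, against 146, 104 and 112 CPM in wild type oil livers. All wild type CCl4 libraries lay below the wild type oil libraries (-0.41 ± 0.13, adjusted p = 0.0254, limma), a change under the fold threshold that was called with TMM (-0.73), as was that in *Lcn2* null livers (-0.58).

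*Abcg5* and *Abcg8* encode the 2 partners of the sterol exporter into bile and lie head to head on chromosome 17. *Abcg8* had 33.1, 25.6 and 36.9 CPM in *Lcn2* null CCl4 livers, against 45, 50.4 and 51.4 CPM in *Lcn2* null oil livers. It had 38.1, 39.95 and 34.3 CPM in wild type CCl4 livers, against 28, 30.5 and 35.7 CPM in wild type oil livers. It was called lower in *Lcn2* null livers (-0.62 ± 0.14, adjusted p = 0.00339, limma), a call that ended without *Lcn2* null CCl4 replicate 2 (-0.47). The wild type groups overlapped, and the difference of 0.25 ± 0.13 turned to -0.07 with TMM. *Abcg5* had 29.8, 25.1 and 36.3 CPM in *Lcn2* null CCl4 livers, against 41.4, 33.2 and 36.4 CPM in *Lcn2* null oil livers, and 36.2, 45.4 and 30.3 CPM in wild type CCl4 livers, against 29.8, 24.6 and 24.6 CPM in wild type oil livers. It was not called in either genotype with the deposited scaling, whereas with TMM it was called lower in *Lcn2* null livers (-0.70, adjusted p = 0.00301, limma).

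*Abcc3* (MRP3, which returns glucuronides to the blood) was called lower in *Lcn2* null livers. It had 77.8, 80.04 and 81.4 CPM in *Lcn2* null CCl4 livers, against 153, 157 and 139 CPM in *Lcn2* null oil livers. It had 107, 93.1 and 103 CPM in wild type CCl4 livers, against 124, 104 and 126 CPM in wild type oil livers. The groups were apart in *Lcn2* null livers (-0.90 ± 0.09, adjusted p = 9.13e-06, limma), and the wild type difference was -0.22 ± 0.11. With TMM the wild type value was -0.54 (adjusted p = 0.003, limma), just under the fold threshold, and DESeq2 called *Abcc3* lower there. *Abcc6*, mutated in pseudoxanthoma elasticum and linked to ATP release from hepatocytes, had 43.3, 42.5 and 48.1 CPM in *Lcn2* null CCl4 livers, against 59.1, 71.5 and 65.6 CPM in *Lcn2* null oil livers. It had 45.3, 43.9 and 43.6 CPM in wild type CCl4 livers, against 50.9, 46.2 and 44.4 CPM in wild type oil livers. Its *Lcn2* null change of -0.54 ± 0.11 was just under the fold threshold and was called with TMM (-0.96).

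Among the peroxisomal transporters, *Abcd3*, which carries branched fatty acids and bile acid precursors, had 251, 249 and 291 CPM in *Lcn2* null CCl4 livers, against 421, 399.6 and 331 CPM in *Lcn2* null oil livers. It had 288, 402 and 343 CPM in wild type CCl4 livers, against 321, 266 and 236 CPM in wild type oil livers. The *Lcn2* null groups were apart (-0.54 ± 0.11, adjusted p = 0.00148, limma), under the fold threshold and called with TMM (-0.96). The wild type difference of 0.33 ± 0.14 turned to -0.000352 with TMM. *Abca2* was called lower in wild type livers, where it had 12.5, 15.5 and 12.1 CPM with CCl4, against 26, 18.8 and 19.4 CPM with oil (-0.63 ± 0.18), and that call ended without WT CCl4 replicate 1 or 3 (-0.59 and -0.57) or WT oil replicate 1 (-0.49). *Abca2* had 15, 13.3 and 17.4 CPM in *Lcn2* null CCl4 livers, against 21.8, 26 and 20.6 CPM in *Lcn2* null oil livers, which was called lower with TMM but not with the deposited scaling (-0.96).

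The ABC transporters of mitochondria and lysosomes (such as *Abcb6*, *Abcb8*, *Abcb9* and *Abcb10*), which act in heme and iron-sulfur metabolism and peptide transport, were not called in either genotype with the deposited scaling, and with TMM *Abcb10* was called lower in *Lcn2* null livers (-0.57). Their median log2 fold change was 0.04 in *Lcn2* null livers (-0.37 with TMM) and 0.17 in wild type livers (-0.14 with TMM). *Abcf2*, *Abcf3*, *Abcc9* (a subunit of potassium channels), *Abcc10*, *Abcd4*, *Abca3*, *Abca5*, *Abca6*, *Abca8b* and *Abcb1b* were also called in neither genotype with the deposited scaling. With TMM *Abca6* was called lower in *Lcn2* null livers (-0.84) and *Abca8b* in wild type livers (-0.59). DESeq2 made both of these calls, and also called *Abcd4* lower in *Lcn2* null livers and *Abca6* lower in wild type livers. *Abca8a* had 41.7, 39.3 and 42.8 CPM in *Lcn2* null CCl4 livers, against 50.7, 60.5 and 59 CPM in *Lcn2* null oil livers, and 39.1, 38.1 and 36.3 CPM in wild type CCl4 livers, against 36.9, 36.9 and 32.3 CPM in wild type oil livers. Its groups were apart in *Lcn2* null livers, where it was called with TMM but not with the deposited scaling (-0.87), and overlapped in wild type livers.

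The next question was how the genotypes differed after mineral oil alone. Of 58 members, 6 were called higher in *Lcn2* null oil livers than in wild type oil livers and 1 lower, whereas 1.11% of all 14202 genes were called higher and 3.8% lower. The members had a median log2 fold change of 0.16, where all genes had -0.03. The *Lcn2* null libraries lay wholly above the wild type libraries for 17 of 58 members and wholly below them for 4, where this held for 9.84% and 14.3% of all genes. The same 6 and 1 members were called with TMM (all genes 1.36% and 3.5%) and edgeR (all genes 1.34% and 3.39%). DESeq2 called 7 and 2, with *Slc22a3* and *Slco3a1* in addition (all genes 1.86% and 4.8%).

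*Slco1a1* had 41.1, 53.4 and 14.9 CPM in *Lcn2* null oil livers, against 10.6, 8.64 and 3.85 CPM in wild type oil livers. The groups were apart, though *Lcn2* null oil replicate 3 was near the highest wild type library, and the log2 fold change was 2.02 ± 0.40 (adjusted p = 0.0114, limma). The call ended without *Lcn2* null oil replicate 1 or 2 (1.85 and 1.66). *Slco1a4* had 140.4, 92.9 and 91.4 CPM in *Lcn2* null oil livers, against 54, 53.7 and 34.7 CPM in wild type oil livers, with a log2 fold change of 1.17 ± 0.19 (adjusted p = 0.0038, limma) that was called without any single library. The third gene of that chromosome 6 cluster, *Slco1b2*, had 1096, 769 and 760.2 CPM in *Lcn2* null oil livers, against 777, 604 and 527 CPM in wild type oil livers, where the groups overlapped and it was not called.

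*Slc22a30* had 179.8, 197 and 181 CPM in *Lcn2* null oil livers, against 121, 125 and 120.5 CPM in wild type oil livers (log2 fold change 0.61 ± 0.09, adjusted p = 0.0028, limma). *Abca8a*, one of the Abca genes clustered on chromosome 11, had 50.7, 60.5 and 59 CPM in *Lcn2* null oil livers, against 36.9, 36.9 and 32.3 CPM in wild type oil livers (log2 fold change 0.66 ± 0.12, adjusted p = 0.00597, limma). Both differences were larger than the spread within the groups, and both calls were kept without any single library. *Abcd2* had 59, 34.8 and 52.8 CPM in *Lcn2* null oil livers, against 31.1, 24.1 and 15.3 CPM in wild type oil livers (log2 fold change 1.05 ± 0.24, adjusted p = 0.0218, limma), a call that ended without *Lcn2* null oil replicate 1 or 3 (0.90 and 0.97) or WT oil replicate 2 or 3 (1.09 and 0.78). *Abcg8* had 45, 50.4 and 51.4 CPM in *Lcn2* null oil livers, against 28, 30.5 and 35.7 CPM in wild type oil livers (log2 fold change 0.63 ± 0.12, adjusted p = 0.0111, limma), a call that ended without *Lcn2* null oil replicate 2 (0.61) or WT oil replicate 1 or 2 (0.55 and 0.61).

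Below the fold threshold, *Abcc2* (0.48 ± 0.11), *Abcc6* (0.46 ± 0.11) and *Abcd3* (0.49 ± 0.13) were also higher in *Lcn2* null oil livers, with adjusted p of 0.0226, 0.0321 and 0.0456 (limma). Of the 8 pericentral markers, *Cyp1a2* and *Oat* were called higher, and the part of these cells in the higher carriers was not tested. When the fit used no trend of the variance with the level, none of the 6 was called higher but *Slc22a3* was, and *Abcc1* and *Abcg1* were called lower.

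*Abcg1* was the only member called lower in *Lcn2* null oil livers. It had 4.25, 6.17 and 5.58 CPM there, against 14, 10.7 and 9.98 CPM in wild type oil livers, with no overlap (log2 fold change -0.99 ± 0.21, adjusted p = 0.0156, limma). The call ended without *Lcn2* null oil replicate 1 (-0.86) or WT oil replicate 1 or 2 (-0.85 and -1.03). *Abcc1* had 0.763, 0.861 and 0.496 CPM in *Lcn2* null oil livers, against 2.18, 1.56 and 2.4 CPM in wild type oil livers (-0.83 ± 0.25, adjusted p = 0.0726, limma), and *Slco3a1* had 4.25, 3.23 and 4.09 CPM, against 8.1, 5.76 and 6.73 CPM (-0.69 ± 0.22, adjusted p = 0.0885, limma). Neither was called, although the groups were apart for both. Beside them, 8 of the 9 Kupffer cell and macrophage markers and 7 of the 8 monocyte and neutrophil markers were called lower in *Lcn2* null oil livers, with medians of -0.93 and -1.70. The monocyte and neutrophil list summed to 128 to 198 CPM in *Lcn2* null oil livers, against 543 to 838 CPM in wild type oil livers. Other lists were lower as well, with 5 of 6 mesothelium markers called (median -1.82). The same held for 4 of 8 stellate cell and myofibroblast markers and 4 of 8 cholangiocyte markers. None of the hepatocyte, sinusoidal endothelium or lymphocyte markers was called. The part of any of these cells in the difference of *Abcg1* was not tested.

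After CCl4, no member was called between *Lcn2* null and wild type livers among 58 tested with limma, where 0.104% of all 14445 genes were called higher and 0.194% lower. Before adjustment, p was under 0.05 for 3 members that were higher and 9 that were lower, and for 4.87% and 3.79% of all genes. TMM (all genes 0.09% and 0.18%) and edgeR (all genes 0.09% and 0.125%) called none. DESeq2 called none higher and *Slc22a7*, *Slc22a27* and *Slc22a29* lower (all genes 0.478% and 0.796%), and in 1 fit of all 12 libraries *Slc22a29* alone was called. The *Lcn2* null libraries lay wholly above the wild type libraries for 3 members and wholly below for 6 (all genes 8.66% and 5.56%). *Slc22a29* had 0.396, 0.101 and 0.375 CPM in *Lcn2* null CCl4 livers, against 1.99, 2.81 and 2.04 CPM in wild type CCl4 livers, with no overlap (-1.35 ± 0.26, adjusted p = 0.0603, limma). *Slc22a7* had 4.35, 5.94 and 9.0 CPM in *Lcn2* null CCl4 livers, against 9.72, 16.4 and 13.3 CPM in wild type CCl4 livers, also without overlap (-0.95 ± 0.26, adjusted p = 0.222, limma). *Slc22a27* (-0.64 ± 0.21), *Slc22a26* (-0.42 ± 0.14) and *Abcb1a* (-0.66 ± 0.22) had negative differences too, while *Abca8b* (0.50 ± 0.15) and *Abcb4* (0.31 ± 0.10) had positive ones, with adjusted p from 0.306 to 0.364 (limma). *Slco1b2* had 332, 316 and 327 CPM in *Lcn2* null CCl4 livers, against 312, 359.9 and 359 CPM in wild type CCl4 livers, so that the genotypes overlapped after CCl4.

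The difference of the CCl4 response between the genotypes was then tested in 1 fit of all 12 libraries. Of 59 members, none was called with a higher response in *Lcn2* null livers and 6 with a lower one, where 1.09% and 0.816% of all 15194 genes were called. Unadjusted p under 0.05 was reached by 2 and 20 members, and by 9.74% and 5.19% of all genes. The members had a median difference of -0.19, where all genes had 0.09. TMM (all genes 0.902% and 1.27%) and edgeR (all genes 0.994% and 1.21%) each called 0 members with a higher and 7 with a lower response, and DESeq2 0 and 17 (all genes 2.38% and 2.28%).

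The 6 members were *Slc22a29* (difference -1.91 ± 0.39, adjusted p = 0.0168, limma), *Slco1a4* (-1.56 ± 0.35, adjusted p = 0.0266, limma), *Abcg8* (-0.87 ± 0.19, adjusted p = 0.0278, limma), *Abcd3* (-0.86 ± 0.19, adjusted p = 0.0249, limma), *Abcc3* (-0.68 ± 0.14, adjusted p = 0.0168, limma) and *Slc22a30* (-0.57 ± 0.12, adjusted p = 0.0235, limma). They include uptake carriers of organic anions, 1 partner of the biliary sterol exporter, a peroxisomal transporter and a sinusoidal exporter of glucuronides. All 6 were called with TMM, edgeR and DESeq2 as well, whereas without a trend of the variance with the level *Slc22a29* alone was called. The level of *Slc22a29* in *Lcn2* null CCl4 livers rests on 7 reads over 3 libraries. For the same contrast the monocyte and neutrophil markers were called higher in 5 of 8 cases (median difference 1.56). Of 8 pericentral markers *Cyp2e1* alone was called lower (median -0.33), and of 7 periportal markers 2 were, *Hal* and *Cyp2f2* (median -0.68). *Marco*, *Krt19*, *Krt8*, *Top2a* and *Cdk1*, of the macrophage, cholangiocyte, mesothelium and proliferation lists, were called higher. The part of these cells in the 6 differences was not tested. The responses of *Slco1a4* were -0.61 in *Lcn2* null livers and 0.95 in wild type livers, those of *Abcg8* -0.62 and 0.25, those of *Abcd3* -0.54 and 0.33, those of *Slc22a29* -1.92 and -0.01, those of *Abcc3* -0.90 and -0.22, and those of *Slc22a30* -0.84 and -0.27.

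The calls of the difference depended on single libraries in each of the 6 cases. That of *Slc22a29* ended without *Lcn2* null CCl4 replicate 2 (-1.80) or WT CCl4 replicate 2 (-1.80). That of *Abcc3* ended without *Lcn2* null oil replicate 2 (-0.64) or WT oil replicate 2 (-0.59). That of *Slco1a4* ended without *Lcn2* null CCl4 replicate 2 (-1.25), *Lcn2* null oil replicate 1 (-1.36), WT CCl4 replicate 2 or 3 (-1.54 and -1.37) or WT oil replicate 3 (-1.35). That of *Slc22a30* ended without *Lcn2* null CCl4 replicate 1 or 2 (-0.55 and -0.54), *Lcn2* null oil replicate 2 (-0.53), WT CCl4 replicate 2 or 3 (-0.59 and -0.53) or WT oil replicate 2 (-0.59), that of *Abcd3* without *Lcn2* null CCl4 replicate 1 or 2 (-0.83 and -0.82), *Lcn2* null oil replicate 1 or 2 (-0.79 and -0.83), WT CCl4 replicate 2 or 3 (-0.75 and -0.86) or WT oil replicate 2 (-0.85), and that of *Abcg8* without *Lcn2* null CCl4 replicate 1 or 2 (-0.90 and -0.72), *Lcn2* null oil replicate 2 or 3 (-0.85 and -0.83), WT CCl4 replicate 2 (-0.82) or WT oil replicate 1 or 2 (-0.79 and -0.85). The sign held in each of these fits. The oil livers entered both the difference and the comparison of the genotypes after oil, so these results are not independent. *Slco1a4*, *Abcg8* and *Slc22a30* were called in both. *Abcc3* was not called after oil (0.34 ± 0.11, adjusted p = 0.0847, limma). Its 153, 157 and 139 CPM in *Lcn2* null oil livers and 124, 104 and 126 CPM in wild type oil livers still count in both.

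**Figure D4:**
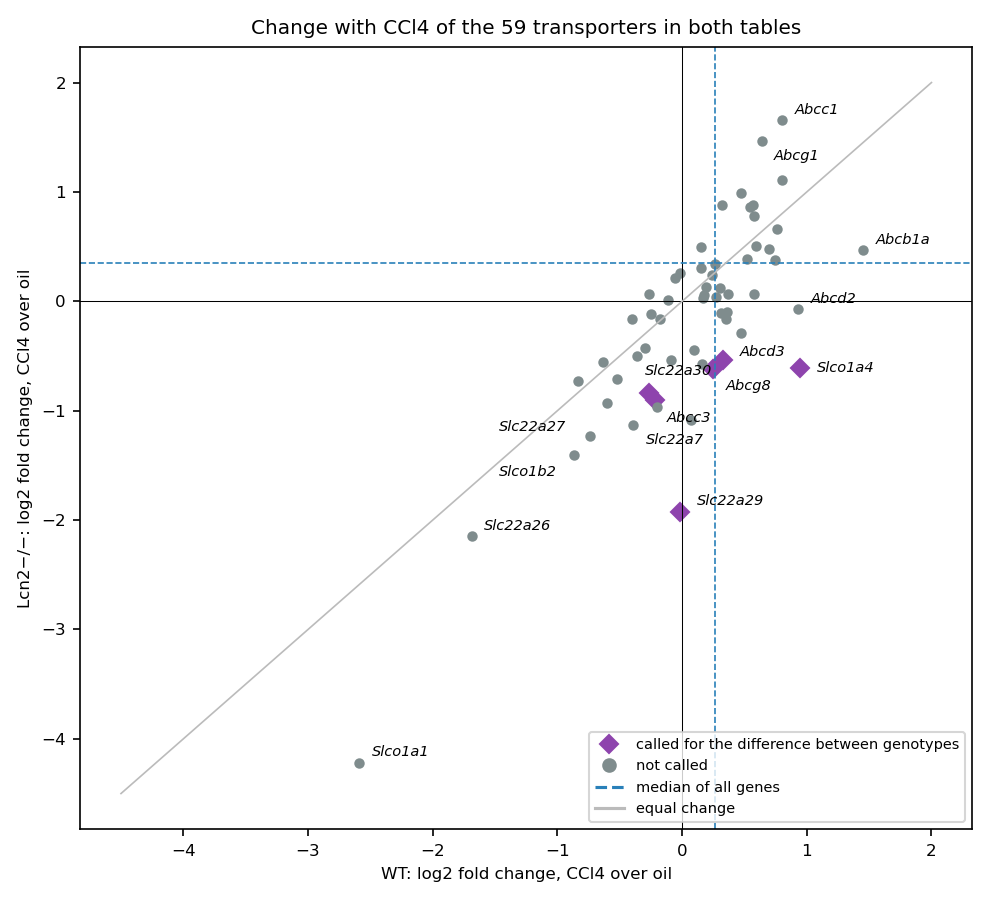
Each point is 1 of the 59 transporters in both treatment tables, with its log2 fold change of CCl4 over oil in Lcn2 null livers (vertical) and in wild type livers (horizontal), the medians of all genes as dashed lines and the line of equal change in grey. The 6 transporters called for the difference (diamonds) lie below the line of equal change, Slc22a29 the farthest at -1.92 and -0.01, while Slco1a1 is lowest in both at -4.22 and -2.59.

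Other transport genes of the liver, a list of 24 of which 21 were measured, gave 4 higher and 3 lower with CCl4 in *Lcn2* null livers (1 and 8 with TMM) and 1 higher and 3 lower in wild type livers (0 and 3 with TMM). The shares of all genes called higher and lower were 29.6% and 4.51% in *Lcn2* null livers (12.5% and 10.7% with TMM). They were 18.5% and 3.18% in wild type livers (7.57% and 6.82% with TMM). *Slc10a1*, the main sodium-dependent carrier of bile acids into hepatocytes, had 245, 235 and 253 CPM in *Lcn2* null CCl4 livers, against 657, 548 and 531 CPM in *Lcn2* null oil livers. It had 202, 331 and 294 CPM in wild type CCl4 livers, against 529, 382 and 345 CPM in wild type oil livers. Its CCl4 libraries were below the oil libraries in both genotypes (-1.23 ± 0.10 and -0.61 ± 0.18). *Slc17a2* was also lower in both (-1.08 ± 0.10 and -0.75 ± 0.11), and the lactate carrier *Slc16a1* higher in both (1.01 ± 0.09 and 0.71 ± 0.12), the wild type call of *Slc16a1* ending with TMM (0.39). After oil, *Slc47a1*, the exporter of cations into bile, was higher in *Lcn2* null livers (0.60 ± 0.12), as was the urate carrier *Slc2a9* (0.60 ± 0.13), and *Ezr* was lower (-1.79 ± 0.22). None of the 21 was called between the genotypes after CCl4.

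Of 19 nuclear receptors and other regulators of transporter genes, 1 was called higher and 3 lower with CCl4 in *Lcn2* null livers (1 and 8 with TMM), and 2 higher and 2 lower in wild type livers (1 and 3 with TMM). Of all genes, 29.6% and 4.51% were called higher and lower in *Lcn2* null livers (12.5% and 10.7% with TMM). In wild type livers 18.5% and 3.18% were (7.57% and 6.82% with TMM). *Nr1i3*, the constitutive androstane receptor that responds to drugs and bilirubin, had 58.2, 55.5 and 42.9 CPM in *Lcn2* null CCl4 livers, against 139.5, 117 and 124 CPM in *Lcn2* null oil livers. It had 46.8, 25.2 and 49.3 CPM in wild type CCl4 livers, against 71.5, 74.7 and 65.4 CPM in wild type oil livers. It was thus lower with CCl4 in both genotypes (-1.27 ± 0.12 and -0.85 ± 0.19) and higher in *Lcn2* null oil livers than in wild type oil livers (0.83 ± 0.11), the 1 regulator called after oil. *Nr0b2*, a repressor induced by bile acids, was lower with CCl4 in both (-0.93 ± 0.17 and -1.15 ± 0.24), and *Nfe2l2*, the oxidative stress factor NRF2, was higher in both (1.32 ± 0.10 and 0.97 ± 0.14). *Cebpa* was called lower in *Lcn2* null livers (-0.72 ± 0.11) and *Keap1*, which holds NRF2 in check, higher in wild type livers (0.71 ± 0.14), which was 0.39 and not called with TMM. None was called between the genotypes after CCl4.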

How the data were processed

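Liver RNA was sequenced in 12 libraries, for which the sources name a 3′-end kit (rapid MACE) and a total RNA kit. The 4 deposited tables, 1 per comparison, hold CPM, counts scaled to 1000000 reads in genes per library, which the authors made by aligning the reads to mm10, counting them per gene and dividing by the total of each library. The methods and the processing notes name different counting programs, and strand is not assumed. Each library stood in 2 tables with equal values, and every column could be mapped (0 were left unmapped). Columns of the authors' own fold changes, p-values and means (DESeq2 1.30.0, per the labels) and 8 enrichment tables were not used.

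Main tests were run with limma 3.58.1 (R 4.3.3) on log2(CPM + 1) with a trend of the variance, over all genes of a table with the 6 libraries of the comparison, and over 12 libraries for the difference of responses, with Benjamini-Hochberg adjustment over all genes. The fold change threshold of 0.56 on the log2 scale was that of the study. All CPM values were whole multiples of 1 read within 0.001 reads (100%), and edgeR 4.0.16 and DESeq2 1.42.0 were run on these recovered reads as alternatives, beside TMM, other pseudocounts, a filter on low values, a replicate block and leaving out each library. With CCl4 in *Lcn2* null livers, edgeR called 1981 genes higher and 1707 lower, and DESeq2 2075 and 1774, of 15645. Only the limma fit was also run on simulated counts. These were drawn without a shift of the bulk of the genes, so that run does not bear on the choice of scaling.

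Values in every library are given for members called in any comparison (up to 8 per comparison and direction with the largest change), for members called in the difference of responses and for a set of 18 hepatocyte transporters. *Slc22a4* and *Abca8b* were added after their values were seen. Some members that the counts include are not reported here by name. Members, marker lists and role groups were chosen with earlier results of these data known. Gene positions are from GENCODE M21, and promoters from RefSeq.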

Additional observations from a re-analysis of the deposited data

Results flagged for a closer look

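Of 59 transporter genes in both treatment tables, 6 had a CCl4 response that differed between the genotypes in a fit of all 12 libraries with limma, and no transporter differed the other way. The response of *Lcn2* null livers minus that of wild type livers, on the log2 scale, was -1.91 for *Slc22a29*, -1.56 for *Slco1a4*, -0.87 for *Abcg8*, -0.86 for *Abcd3*, -0.68 for *Abcc3* and -0.57 for *Slc22a30*. *Slco1a4* alone was called in opposite directions in the 2 genotypes. Its *Lcn2* null call also ended in the fit of all 12 libraries (adjusted p = 0.0511), with a pseudocount of 5 (0.053) and without a variance trend (0.133, limma throughout). Without a variance trend, *Slc22a29* alone of the 6 differences was called. Each of the 6 calls ended when 1 or another single library was left out, as given above, while the sign held. *Slco1a4*, *Abcg8* and *Slc22a30* were also called higher in *Lcn2* null oil livers than in wild type oil livers. The same oil livers entered the difference, so it is not independent of those calls.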

How the results depend on the processing

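Rescaling moved the treatment counts most. In *Lcn2* null livers the members called higher with CCl4 numbered 2 with TMM, 4 with edgeR and 4 with DESeq2, against 9, and those called lower 26, 26 and 27, against 16, and 10 with a pseudocount of 5. In wild type livers they numbered 3, 2 and 2 higher, against 13, with 5 at a pseudocount of 5 and 6 to 10 when 1 library was left out, and 12, 11 and 14 lower, against 6. After oil, leaving out the variance trend gave 1 higher and 2 lower, DESeq2 gave 2 lower, and leaving out 1 library gave 0 to 1 lower. After CCl4, DESeq2 called 3 members lower between the genotypes and the fit of 12 libraries 1. For the difference of responses DESeq2 called 17 lower, the fit without a variance trend 1, and fits without 1 library 0 to 1 higher and 1 to 7 lower. The log2 fold change of *Abcc2* in *Lcn2* null livers turned to -0.36 with TMM, -0.36 with edgeR and -0.37 with DESeq2. In wild type livers that of *Abcg8* turned to -0.0679 with TMM, -0.0695 with edgeR and -0.0789 with DESeq2, that of *Abcd3* was -0.000352 with TMM, and that of *Slc22a29* was 0.00112 with a pseudocount of 0.5 and -0.34 to 0.26 without 1 library. The cause of these changes was not tested. Of the values for single genes under all alternatives, 1128 kept direction and side of the threshold, 189 fell below it, 43 passed it and 12 changed sign.

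The deviations of same-numbered libraries correlated at -0.11 to 0.07 over genes, and those of differently numbered libraries at -0.08 to 0.16. With 3 libraries per group, these values cannot decide whether replicate numbers pair the libraries. With the replicate block the members called higher and lower were 8 and 16 in *Lcn2* null livers, 11 and 6 in wild type livers, 6 and 1 after oil, 0 and 0 after CCl4, and 0 and 7 for the difference. Members under 1 CPM rest on few reads, where small changes were not detectable at this depth.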
